A study of Mus musculus with 8 samples.

Results

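Intraflagellar transport is the traffic of protein trains along the microtubules of a cilium, and the genes that encode its trains, motors and cargo adaptors were followed here on arrays of mouse CD4 T cells with and without Bcl6. The list held 35 genes, of which 33 had a transcript cluster with that symbol alone. Arl6 and Arl13b were not analysed here. The list was assembled by function around Ift57, which had been selected on its genotype difference in these same arrays, so that difference is given below as a description with no test. The whole table held 19938 genes.

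Naive CD4 T cells had been sorted from 2 genotypes with 4 samples each, wild type and a conditional Bcl6-/- restricted to T cells (called Bcl6 cKO). Bcl6 is a transcriptional repressor that directs follicular helper T cell fate. All 8 samples were stimulated with antibodies to CD3 and CD28 for 24 hours before RNA isolation, and all carry the tag Tf0, which the labels leave unexplained. The labels name neither the Cre line nor the deleted exons or the age of the mice. Whether samples came from separate mice is not said either, so p-values reflect the spread among these samples, which may be technical.

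The trains are built from a larger complex, IFT-B, which is carried outward by a heterotrimeric kinesin, and a smaller one, IFT-A, which works with a ciliary dynein on the return. The BBSome, a coat of Bardet-Biedl syndrome proteins, rides on the trains and moves membrane receptors, and small GTPases of the Arl family load and unload it. T cells build no primary cilium, but several IFT-B proteins, Ift20 and Ift57 among them, are known to help recycle the T cell receptor to the immune synapse.

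Values are the log2 signals deposited by the authors, 1 per transcript cluster and array, and a log2 difference is Bcl6 cKO minus wild type. Probes differ in brightness, so levels are compared between arrays and not between genes. Olfactory receptor genes (1027 on the array), which T cells are not known to use, served as a guide to background. Their mean signals had a 95th percentile of 6.90 on the log2 scale. By that measure 27 of the 33 genes stood above background in both groups. Ift74, Ift81, Ttc26, Ttc30b, Dync2li1 and Bbs5 did not, so a difference in these genes could be hidden.

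The arrays were alike, with a correlation of 0.994 or higher between any pair over all genes. Wild-type replicate 4 varied most (interquartile range of its deviations 0.18, against 0.085 to 0.115). Y-linked signal was high in 3 wild-type samples and in Bcl6 cKO replicate 1, and low in the others, so sex and genotype overlap in part. All 8 measured T cell markers were above background, with a mean log2 signal of 12.55 to 12.62 on wild-type and 12.39 to 12.57 on Bcl6 cKO arrays. Of 13 markers of other blood cells 3 were above it (Cd79b, Cd8a and Cd8b1). The mean of the 13 ran from 6.45 to 6.58 in wild type and from 6.40 to 6.58 in Bcl6 cKO. That mean levels out single markers. Cd8b1 read 10.90 to 11.12 in wild type and 10.41 to 10.78 in Bcl6 cKO. Lyz2 read 7.67 on Bcl6 cKO replicate 2 and 5.82 to 6.58 on the other arrays. Cd8b1 had a log2 difference of -0.47 (limma adjusted p = 0.0541), and the part of other cells in the results below was not tested. Bcl6 itself read 8.10 to 8.56 in wild type and 8.40 to 9.05 in Bcl6 cKO (log2 signal), so its cluster was not lower on the arrays labelled knockout. The exons it reads are not known here.

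The Ift57 promoter is shown because Ift57 is the gene that stood apart, and that of Ift27, a small GTPase of the same complex, because its signal had the same mean in both groups. Each sequence is the 250 bases before the gene's start, 5′ to 3′ on the coding strand, from RefSeq (GRCm38.p6). Ift57 is at chr16:49699044-49699293 on the plus strand and Ift27 at chr15:78174082-78174331 on the minus strand. Capitals mark GTTGCC, the core of the X-box through which RFX factors, the regulators of ciliary genes, are known to bind.
Ift57: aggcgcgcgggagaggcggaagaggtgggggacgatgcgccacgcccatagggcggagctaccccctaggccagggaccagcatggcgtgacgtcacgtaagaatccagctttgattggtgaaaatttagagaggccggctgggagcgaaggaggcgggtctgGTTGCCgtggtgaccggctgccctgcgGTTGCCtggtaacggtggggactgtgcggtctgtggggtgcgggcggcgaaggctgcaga
Ift27: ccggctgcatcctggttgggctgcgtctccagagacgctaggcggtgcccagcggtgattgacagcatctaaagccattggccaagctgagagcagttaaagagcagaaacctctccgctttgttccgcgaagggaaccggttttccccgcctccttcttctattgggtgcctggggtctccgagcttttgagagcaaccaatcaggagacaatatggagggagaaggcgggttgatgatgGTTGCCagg

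The Ift57 promoter held 2 such cores, which began 87 and 60 bases before the start, and that of Ift27 held 1, which began 9 bases before it. Of the 35 listed genes 30 matched the promoter table, with 31 promoters. GTTGCC, read on both strands, was in 8 of these 31 (25.8%) and in 10.4% of all 32851 promoters of that length. It was in Arl13b, Bbs7, Ift140, Ift27, Ift57, Kif3a, Traf3ip1 and Ttc26. The longer core GTTGCCATG, which contains GTTGCC, was in none of the 31 and in 0.642% of all. An inverted repeat of the core, GTTNCC and GGNAAC with 0 to 3 bases between them, was searched for after the Ift57 promoter had been seen. It was in Ift57, where that order of steps fixed the match in advance, and in Bbs7 and Ttc26. With Ift57 counted that is 3 of the 31 promoters (9.68%), against 0.673% of all, and nothing is read from these shares. The core TTCNNNGAA, shared by known Bcl6 and Stat sites, was in Ift27, Ift43 and Ttc26, again 3 of 31 (9.68%), against 7.02% of all. It was not in this window of Ift57. A match is a description of letters and not of binding.

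The comparison of genotypes asks which of these genes differ when T cells lack Bcl6. Ift57, an IFT-B subunit that pairs with Cluap1 and was first named as a partner of a huntingtin-interacting protein, stood higher on all Bcl6 cKO arrays. Its log2 signal was 8.23, 8.13, 8.19 and 7.91 on wild-type replicates 1 to 4. On Bcl6 cKO replicates 1 to 4 it was 8.83, 8.81, 8.90 and 8.64. The groups did not overlap: the lowest Bcl6 cKO array lay 0.41 above the highest wild-type array.

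The means of Ift57 were 8.12 ± 0.14 and 8.80 ± 0.11 (log2, SD, n = 4 each), a log2 difference of 0.68 (95% confidence interval 0.50 to 0.86), or 1.60-fold. Replicate 4 was the lowest array of each group. Over all genes 0.105% were called higher in Bcl6 cKO (limma, Benjamini-Hochberg adjusted p under 0.05), but Ift57 was chosen by this contrast and nothing is read from that share. The interval takes no account of that choice. With sex in the fit the log2 difference was 0.76 ± 0.081 (SE). Fitted among high-Y arrays alone, where Bcl6 cKO replicate 1 is the lone knockout, it was 0.65. Among the others, where wild-type replicate 4 is the lone control, it was 0.87.

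**Figure D1:**
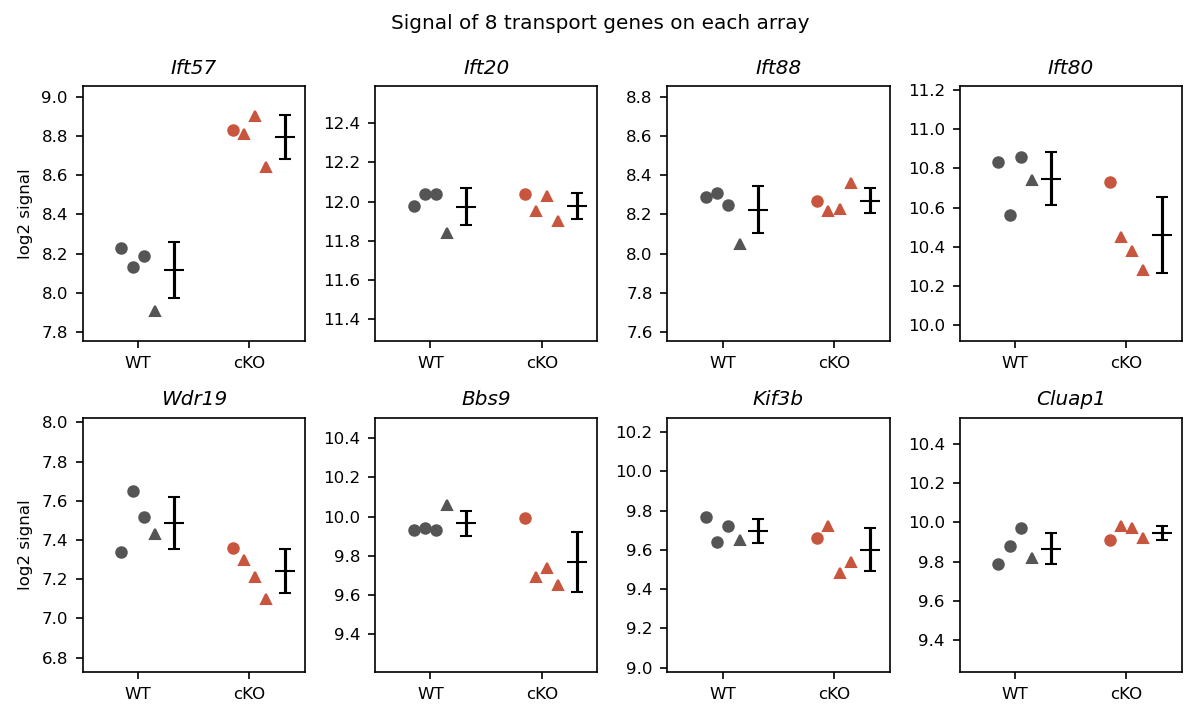
Log2 signal of 8 transport genes on each array (y axis, same span of log2 units in every panel) in wild type (WT, grey) and Bcl6 cKO (cKO, red). Circles are arrays with high and triangles arrays with low Y-linked signal, and bars are mean ± SD (n = 4). The groups of Ift57 are apart, while those of the other 7 genes overlap.

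None of the other 32 genes was called in either direction (limma, adjusted p under 0.05). An unadjusted p under 0.05 was found for 4 of them, against 10.8% of all genes. Over all genes 0.105% were called higher and 0.115% lower, so a count of 0 among 32 genes is near that background. Of the 32, 13 lay above wild type, 18 below and 1 had equal means. Their median log2 difference was -0.02, against 0.00 over all genes. Their median difference without regard to sign was 0.074, against 0.055 over all genes. The groups of none of the 32 were separate, whereas 5.97% of all genes had separate groups.

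The intervals bound the difference in signal. For genes not above background, Bbs5 among them, a transcript difference could still be hidden. The 95% confidence intervals of the 32 genes ran at most to -0.50 (Ift80) and 0.34 (Bbs5), so none reached the 0.68 of Ift57 in either direction. The difference was under 0.1 in size for 23 of them and under 0.2 for 30. The next in size after Ift57 was Ift80, with -0.29.

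**Figure D2:**
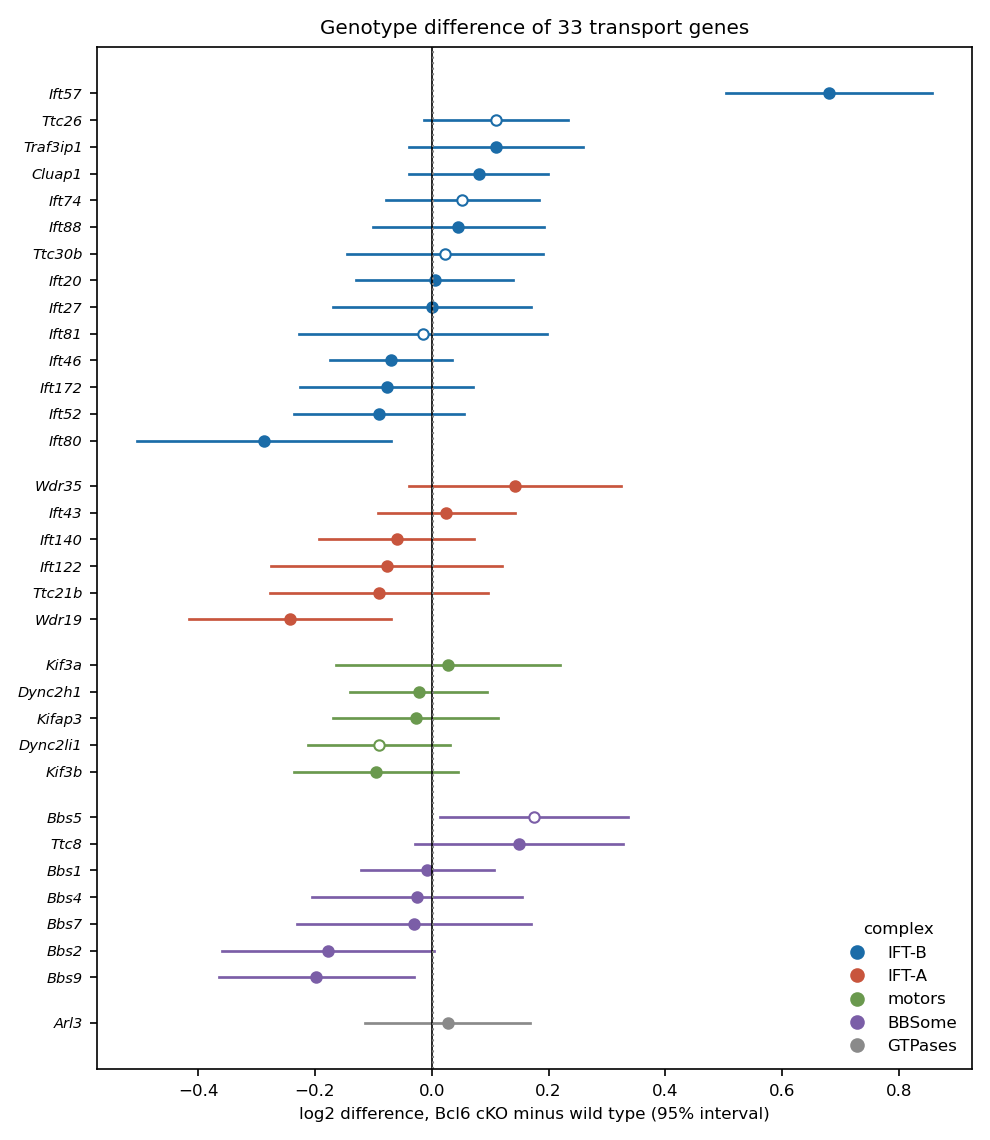
Log2 difference of 33 transport genes (x axis, Bcl6 cKO minus wild type, n = 4 each), by complex, with 95% confidence intervals from limma as lines. Open circles are genes not shown to stand above background, and the dotted line is the median of all genes. Ift57 is at 0.68, and the other 32 genes lie between -0.29 and 0.18.

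Within IFT-B, 7 of the 13 measured genes other than Ift57 lay above wild type and 5 below, with a median log2 difference of 0.01. Cluap1, which binds Ift57 in the train, read 9.79, 9.88, 9.97 and 9.82 in wild type and 9.91, 9.98, 9.97 and 9.92 in Bcl6 cKO (log2 signal). Its groups overlapped, with a log2 difference of 0.08 (95% confidence interval -0.038 to 0.20, limma adjusted p = 0.655).

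Ift20, the IFT-B subunit that also sits at the Golgi and is best known in T cells for receptor recycling, read 11.98, 12.04, 12.04 and 11.84 in wild type and 12.04, 11.95, 12.03 and 11.90 in Bcl6 cKO. The log2 difference was 0.01 (95% confidence interval -0.13 to 0.14). Its level was thus bounded within 0.14 log2 units. Traf3ip1, the partner of Ift20, had a log2 difference of 0.11 (7.56 ± 0.12 and 7.67 ± 0.071, SD, n = 4 each, limma adjusted p = 0.612).

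Ift88, whose loss abolishes cilia in mice, was 8.29, 8.31, 8.25 and 8.05 in wild type and 8.27, 8.22, 8.23 and 8.36 in Bcl6 cKO. Replicate 4 was the lowest wild-type and the highest Bcl6 cKO array, and the log2 difference was 0.04 (limma adjusted p = 0.882). The core subunit Ift52 had a log2 difference of -0.09 (9.93 ± 0.10 and 9.84 ± 0.089), and Ift46, which binds it, -0.07 (10.12 ± 0.047 and 10.05 ± 0.033, SD, n = 4 each). Ift172, the largest subunit of the complex, had -0.08 (limma adjusted p = 0.755). None of these intervals excluded 0.

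Ift27, whose promoter is shown above, had a mean of 8.80 in both groups, with SDs of 0.13 and 0.10 (n = 4 each). Ift74 and Ift81, the pair that carries tubulin, had log2 differences of 0.05 and -0.02, at signals of 6.50 to 6.97 on the 8 arrays that were not shown to stand above background. The same holds for Ttc26 (0.11) and Ttc30b (0.02), whose signals ran from 6.53 to 6.80 and from 4.04 to 4.42.

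Ift80, an IFT-B subunit mutated in a skeletal ciliopathy, read 10.83, 10.56, 10.86 and 10.74 in wild type. In Bcl6 cKO it read 10.73, 10.45, 10.38 and 10.28. Bcl6 cKO replicate 1 lay within the wild-type range and the other Bcl6 cKO arrays below it. The log2 difference was -0.29 ± 0.098 (SE), lower on average in Bcl6 cKO, and did not pass (limma adjusted p = 0.306). Bcl6 cKO replicate 1 is the array of that group with high Y-linked signal. The interaction of sex and genotype was 0.35 (log2, high minus low Y-linked arrays). It rests on that lone array and on wild-type replicate 4, alone in its group with low Y-linked signal. Nothing is read from it.

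The other IFT-B genes did not share the offset of Ift57 between genotypes. Relative to the wild-type mean, Ift57 was 0.72, 0.70, 0.79 and 0.53 higher on Bcl6 cKO replicates 1 to 4 (log2). The mean of the other 13 IFT-B genes lay at 0.02, -0.01, 0.00 and -0.05 on the same arrays. On wild-type replicate 4, where Ift57 was 0.21 below the wild-type mean (-0.21), the other 13 stood at -0.06. Within each group replicate 4 was the lowest array both for Ift57 and for the mean of the other 13. Replicate 4 was the lowest wild-type array for 15 of the 33 genes, and for 35.6% of all genes. Bcl6 cKO replicate 4 was the lowest of its group for 14 of the 33, and for 23.9% of all genes.

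**Figure D3:**
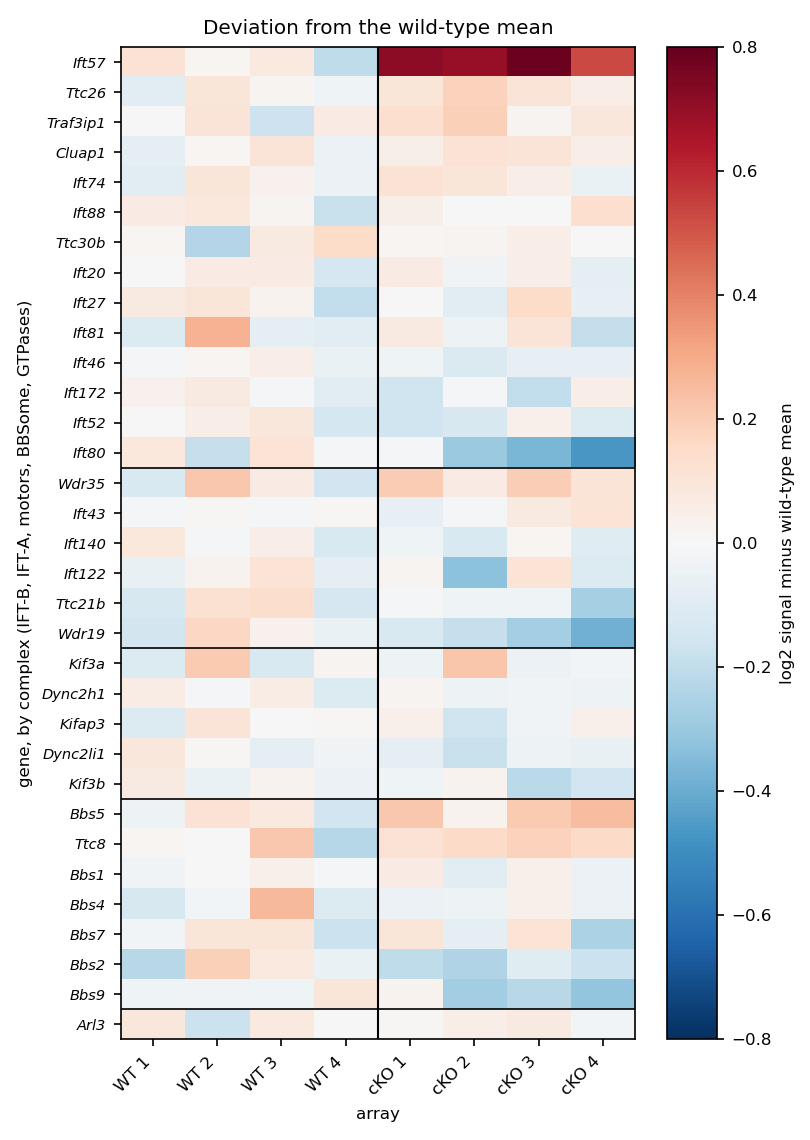
Log2 signal of each of 33 genes (rows, by complex) on each array (columns) minus the gene's wild-type mean, from blue (lower) to red (higher). The Ift57 row is 0.53 to 0.79 above the wild-type mean on the 4 Bcl6 cKO arrays, and no other row has such a block.

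Among the 6 IFT-A genes 2 lay above wild type and 4 below, with a median log2 difference of -0.07. Wdr19, a core subunit also called Ift144, had the smallest p of the 32 genes. It read 7.34, 7.65, 7.52 and 7.43 in wild type and 7.36, 7.30, 7.21 and 7.10 in Bcl6 cKO. The groups overlapped through wild-type replicate 1 and Bcl6 cKO replicate 1. The log2 difference was -0.24 ± 0.078 (SE), which did not pass (limma adjusted p = 0.275).

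Of its partners 3 lay below wild type as well, by less, and 2 above, and none was called. Wdr35 had a log2 difference of 0.14 (7.70 ± 0.17 and 7.84 ± 0.068, SD, n = 4 each), Ift140 -0.06, Ift122 -0.08 and the peripheral subunits Ttc21b -0.09 and Ift43 0.03. The smallest limma adjusted p of these was that of Wdr35 (0.583). Ttc21b, whose loss in mice disturbs hedgehog signalling, read 8.36, 8.34 and 8.34 on Bcl6 cKO replicates 1 to 3 and 8.11 on replicate 4.

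Of the 5 motor genes 1 lay above wild type and 4 below, all within 0.10 log2 units. Kif3b, a motor chain of the outward kinesin, read 9.77, 9.64, 9.72 and 9.65 in wild type and 9.66, 9.72, 9.48 and 9.54 in Bcl6 cKO (log2 difference -0.10, limma adjusted p = 0.655). The other motor chain Kif3a had 0.03, and Kifap3, the adaptor that completes the trimer, -0.03. These proteins also move other cargo in cells without cilia. Dync2h1, the heavy chain of the return dynein, had -0.02 (7.84 ± 0.080 and 7.82 ± 0.029), and its light intermediate chain Dync2li1 -0.09, near background.

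Of the 7 BBSome genes 2 lay above wild type and 5 below, and they spread more than the motors, from -0.20 to 0.18. Bbs9, a scaffold subunit, read 9.93, 9.94, 9.93 and 10.06 in wild type and 9.99, 9.69, 9.74 and 9.65 in Bcl6 cKO. As with Ift80, Bcl6 cKO replicate 1 lay in the wild-type range and the other Bcl6 cKO arrays below it. The log2 difference of -0.20 ± 0.075 (SE) did not pass (limma adjusted p = 0.369). The interaction of sex and genotype was 0.42 (log2, high minus low Y-linked arrays). It rests on the same lone arrays as for Ift80, and nothing is read from it.

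Bbs5, a membrane-binding subunit, had a log2 difference of 0.18. Its wild-type mean (6.74 ± 0.12) was not above background and its Bcl6 cKO mean was 6.92 ± 0.10 (SD, n = 4 each, limma adjusted p = 0.41). Bbs2 had -0.18 (8.40 ± 0.18 and 8.22 ± 0.059, limma adjusted p = 0.47). Ttc8, also called Bbs8, had 0.15, with a wild-type spread of 7.07 to 7.51 that enclosed the Bcl6 cKO arrays (7.41 to 7.48). Bbs1, Bbs4 and Bbs7 differed by -0.01, -0.02 and -0.03. The GTPase Arl3, which releases lipid-linked cargo, differed by 0.03 (9.92 ± 0.12 and 9.95 ± 0.04, SD, n = 4 each).

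With sex in the fit 0.0502% of all genes were called by genotype, and none of the 32 genes other than Ift57 (smallest limma adjusted p 0.373, Bbs5). The sex term of that fit compares arrays with high and low Y-linked signal after allowing for genotype. By this term, which the choice of genes did not use, 0.0301% of all genes were called and none of the 33 (limma). Their differences, high minus low with genotype in the fit, ran from -0.10 to 0.20. Bbs7 had the smallest limma adjusted p (0.597). Of the 33, 1 had an unadjusted p under 0.05 for that term (limma). The share of all genes at that unadjusted threshold was not computed, so nothing is read from the count.

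The 6 measured genes other than Ift57 whose promoter held GTTGCC had log2 differences between -0.06 and 0.11. GTTGCC was thus shared by Ift57 and by genes that were not called.

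Ift57 lies on chromosome 16, as Bcl6 does, and is the 186th tested gene after Bcl6 in the gene order of GRCm38.p6. The 33 genes lie on 15 chromosomes, and Cluap1 is the other on chromosome 16, 226 tested genes before Bcl6. Of the 10 tested genes on either side of Ift57, 1 of the 20 was called, against 0.105% of all genes called higher and 0.115% called lower. It was the long non-coding RNA gene Dubr (log2 difference -0.53, limma adjusted p = 0.0381). The direct neighbours differed little: Myh15, a myosin gene, by -0.04 and Cd47, the "do not eat me" surface protein, by 0.03. The predicted gene Gm5486, next after Cd47, had the widest difference of the 20, -0.63, from a mean of 6.36 to 5.73, both below the background level, and did not pass (limma adjusted p = 0.118).

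Within 40 tested genes on either side, a window chosen after the values were seen, 5 of 80 genes were called, 1 higher and 4 lower, against 0.105% and 0.115% of all genes (limma). Cd200, a surface ligand, was higher (0.53), and Slc35a5 (-0.44), Plcxd2 (-0.44), Dubr and Cep97 (-0.42) were lower. What the deleted locus and the DNA around it contribute to these differences was not tested.

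**Figure D4:**
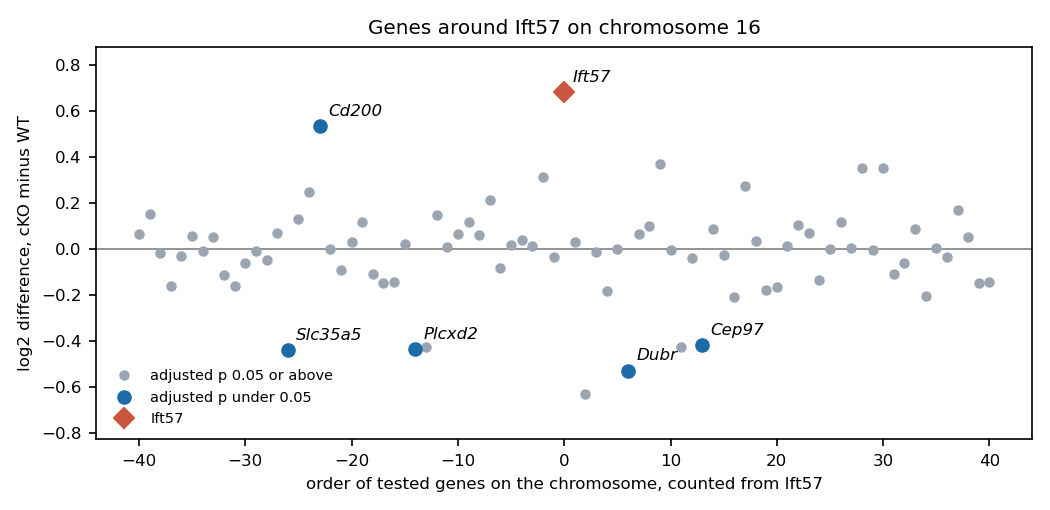
Log2 difference (y axis, Bcl6 cKO minus wild type, n = 4 each) of the 40 tested genes on either side of Ift57, in gene order on chromosome 16 (x axis). Blue points passed limma's adjusted p of 0.05 (1 higher and 4 lower), grey points did not, and the red diamond is Ift57 at 0.68.

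The wider machinery of cilia was read from 5 further lists with 78 measured genes. None was called higher and 1 lower, against 0.105% and 0.115% of all genes (limma, adjusted p under 0.05). Of the 78, 6 had an unadjusted p under 0.05; the share over all genes, 10.8%, is also the one to set beside the unadjusted counts of each list below. The median log2 difference was 0.01, against 0.00 over all genes.

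The called gene was Cep97, a centriole protein that with Ccp110 keeps mother centrioles from growing a cilium. It fell by 0.42 on the log2 scale, from 9.35 ± 0.090 to 8.93 ± 0.097 (SD, n = 4 each, limma adjusted p = 0.0401). It lies 13 tested genes beyond Ift57 on chromosome 16. Without any 1 of 7 arrays it did not pass (limma adjusted p = 0.0668 to 0.156). Those 7 fits called 5 to 12 of all genes higher and 5 to 10 lower, against 21 and 23 in the main fit. Without the 8th array, Bcl6 cKO replicate 1, Cep97 passed (adjusted p = 0.0248), and 39 of all genes were called higher and 100 lower. Its log2 difference lay between -0.45 and -0.37 in these 8 fits. The call was also lost when sex was a term (adjusted p = 0.169), where 5 of all genes were called higher and 5 lower. It was lost too with the replicate number as a block (adjusted p = 0.0575), after median centring (adjusted p = 0.0563) and after quantile normalization (adjusted p = 0.0581). The last 3 fits called 15 to 22 of all genes higher and 13 to 20 lower. Its partner Ccp110 had a log2 difference of 0.09 (limma adjusted p = 0.714). In the same list of 13 basal body genes Cep83, a distal appendage gene, had 0.21 (limma adjusted p = 0.204) and the Talpid3 gene (2700049A03Rik on the array) -0.16 (limma adjusted p = 0.252). Groups did not overlap for 3 of the 13 (Cep97, Cep83 and Talpid3), against 5.97% of all genes.

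Other transport genes outside the list of 35 gave 0 calls of 20 measured (limma, 1 at an unadjusted p under 0.05). Rp2, the GTPase-activating protein of Arl3, had a log2 difference of -0.14, Unc119b, which carries lipid-linked cargo, -0.16, and the chaperonin gene Bbs12 0.16. The 17 transition zone genes, which form the gate at the base of the cilium, also gave 0 calls (1 unadjusted). Cep290, the best known of them, had 0.29 ± 0.096 (SE, limma adjusted p = 0.288). Its wild-type mean of 6.80 was not above background. Rpgrip1l had 0.13 and B9d2 -0.15.

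Of 11 hedgehog genes, a pathway that vertebrates run through the cilium, 0 were called, and 0 had an unadjusted p under 0.05 (limma). By smallest p they were led by the signal transducer Smo, with a log2 difference of 0.38 and an SE of 0.21 (adjusted p = 0.558). The ligand gene Dhh had 0.06, at signals below background, and the receptor gene Ptch1 0.06. Of 18 genes of motile cilia 0 were called (limma, 1 at an unadjusted p under 0.05) and 3 were above background. Foxj1, the master regulator of motile cilia and also a brake on T cell activation, had -0.12 (adjusted p = 0.432), at signals below background. Rsph4a had 0.12, also at signals below background, and Ccdc40 0.07.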

How the data were processed

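The series matrix gives log2 signals deposited by the authors, 1 per transcript cluster (35556) and array. RMA and Partek were used, per the submitters' processing notes; which versions or options, the sources used here do not say. RMA is designed to put all arrays on 1 distribution, and it compresses differences of dim genes. Total RNA (100 ng) was labelled with biotin by a whole-transcript protocol, per the labels' protocols. Arrays have no read depth, and their number limits the precision.

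Platform annotation gave 1 symbol to 21789 clusters, several to 1621 and none to 12146. The cluster with the highest mean was kept per gene (19938 genes; no transport gene had several). The genotype contrast was fitted with lmFit and eBayes of limma 3.58.1 (R 4.3.3) over all genes, unfiltered and without a covariate, and took Benjamini-Hochberg adjustment over all of them. Sex was read from Kdm5d, Uty and Eif2s3y. Gene order and promoters came from RefSeq tables of GRCm38.p6, matched by Entrez ID or symbol. The fit was tested on simulated data. The genes, lists, tests and settings were chosen with earlier results of these data known. Of each further list the 3 genes with the smallest p are named; other named genes outside the list of 35 were picked after their values were seen. Settings tried were variance moderation, array weights, scaling, filters, mean of clusters, replicate block, sex, thresholds and leaving out arrays.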

Additional observations from a re-analysis of the deposited data

Results flagged for a closer look

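In 6 of 66 groups of 4 arrays 1 array lay far from the rest, its gap to the nearest divided by the range being above Dixon's 95% critical value. Chance flags about 1 in 20 groups. In wild type these were Ift81 on replicate 2 (6.97, gap share 0.923) and Bbs9 on replicate 4 (10.06, gap share 0.923). In Bcl6 cKO they were Ttc21b on replicate 4 (8.11, gap share 0.92), Kif3a on replicate 2 (7.63, gap share 0.889), Dync2h1 on replicate 1 (7.86, gap share 0.833) and Bbs4 on replicate 3 (7.77, gap share 0.889). Ift57 was not among them. For the interaction of sex and genotype each group has 1 array of its rarer sex, so no calls are read from it.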

How the results depend on the processing

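The log2 difference of Ift57 was 0.68. It ran from 0.61 (without wild-type replicate 4) to 0.73 when each array was left out in turn, and kept its direction in all settings. Ift57 was chosen for its difference on these same arrays, so this steadiness is a description and no independent support. Within the arrays with low Y-linked signal it moved to 0.87; the cause was not tested. None of the other 32 genes was called higher or lower at an adjusted p of 0.05 in any other setting with more than 1 array per group. None was called at the thresholds of 0.01 and 0.1 either. Over all genes those settings at 0.05 called 5 to 39 higher and 5 to 100 lower, so 0 among 32 is near that background. Fits within 1 sex leave 1 group with a lone array, and no calls are read from them. The smallest adjusted p of the 32 genes was 0.0809 (limma, Bbs9 without Bcl6 cKO replicate 1). Of their 593 values 574 stayed within 1 SD, and the 19 that moved were all from fits within 1 sex. The median over the 33 genes ran from -0.04 to 0.01 without each array. The count of further cilia genes called lower was 1 (Cep97). It was 0 after median centring, after quantile normalization, with the replicate block, with sex as a term and at a threshold of 0.01. The count called lower over all genes, 23 in the main fit, was 5 to 20 in those settings. Without each array in turn, 0 to 1 of the further cilia genes was called lower. The main fit took the samples as unpaired, and whether the replicate numbers mark pairs is not known. Correlations of deviations between arrays of the same number were positive, from 0.073 to 0.21, and 6 of 8 arrays correlated best with their own number. With the block 35 genes passed in place of 44, and Ift57 kept its difference (SE 0.051 in place of 0.080). Dim signals limit 6 of the 33 genes.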
